A study of Ovis aries with 6 samples.

Results

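DYNC1I1 and its paralog DYNC1I2 encode the intermediate chains of cytoplasmic dynein 1, and their transcripts were followed through the cell types of the sheep rumen wall. The pair are 2 of 26741 genes in the deposited count matrices. DYNC1I1 was selected for its difference between the groups in lymphocytes, so its values are given as a description without a test, and DYNC1I2 was set beside it as the second gene of the family. Nuclear RNA came from ventral rumen epithelium of 6 male lambs, with 1 droplet library per animal. Of these, 3 lambs carry the label MGHS and are set against 3 with the label MGNS, picked at random within their group per the labels. The labels do not spell out either abbreviation, give no age, and describe all animals as sheep of a study on supplementary feeding under grazing. No genotype or drug is given for any animal.

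Cytoplasmic dynein 1 is the motor that carries vesicles, organelles and the nucleus toward the minus ends of microtubules. A pair of heavy chains generates force, and the intermediate chains hold the light chains and bind the p150 arm of dynactin, the complex that lets the motor walk over long distances. In mammals DYNC1I2 is found in most cells, while DYNC1I1 is best known from neurons. In T cells dynein takes part in moving the centrosome to the immune synapse.

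The 6 libraries held 67553 barcodes, and 41822 nuclei were kept after filters and doublet removal, between 4830 and 10201 per animal. Each count is 1 unique molecular identifier (UMI), a tag that marks a captured RNA molecule, and levels are in CPM, the UMIs of a gene scaled to a fixed total of UMIs of all genes, summed per animal over the nuclei of a cell class. The median nucleus held between 3123 and 4764.5 UMIs. Between 0.237 and 0.524% of the smaller library's barcodes occurred in another library. Over all barcodes DYNC1I1 had 758, 955 and 996 UMIs in MGHS animals 1 to 3, against 374, 383 and 382 in MGNS animals 1 to 3. DYNC1I2 had 4064, 4347 and 7314 UMIs in MGHS animals and 4106, 6113 and 4882 in MGNS animals. Cell types were rebuilt by clustering and carry the suffix "-like", because names came from marker genes and no deposited annotation was used. The tissue was labelled rumen epithelial, yet keratinocyte-like classes made up 26.8 to 41.9% of the nuclei of an animal, and the rest were lymphocytes, myeloid, vascular, stromal and glia-like nuclei and clusters left unnamed. In a level summed over nuclei, fewer nuclei with a transcript and less RNA per nucleus cannot be told apart, so shares of nuclei are given beside the sums.

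T or NK-like nuclei carried many more DYNC1I1 transcripts in MGHS lambs than in MGNS lambs. This class holds 7859 nuclei of 3 subsets: lymphocytes with IL17F and IL22, cytotoxic cells, and resting helper T-like cells. All 8 measured T or NK markers were higher in it than in the other nuclei, among them the T cell receptor chain gene CD3E with 528 CPM, against 27.8 CPM in the other nuclei. DYNC1I1 stood at 40.8, 48.6 and 43.6 CPM in MGHS animals 1 to 3, from 121, 126 and 120 UMIs. It stood at 2.32, 1.24 and 1.31 CPM in MGNS animals 1 to 3, from 12, 8 and 4 UMIs. The groups did not overlap, and the MGHS animals lay close together. The means were 44.3 ± 3.97 CPM in MGHS and 1.62 ± 0.606 CPM in MGNS (SD, n = 3 each), and the fitted log2 fold change was 4.69 (SE 0.29). The ratio of the pooled UMIs was 26.99, with an exact interval of 17.9 to 42.7 that covers counting error only.

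For the background of that contrast, edgeR's quasi-likelihood test with Benjamini-Hochberg adjustment called 1 of 11721 genes in T or NK-like nuclei (0.00853%), and that gene was DYNC1I1 itself, the value by which it was chosen. At an unadjusted p under 0.05 there were 811 genes. DESeq2 called 79 genes, limma-voom called 1, and edgeR without a filter on low counts called 92. All MGHS animals were above all MGNS animals in 777 genes (6.63%).

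**Figure D1:**
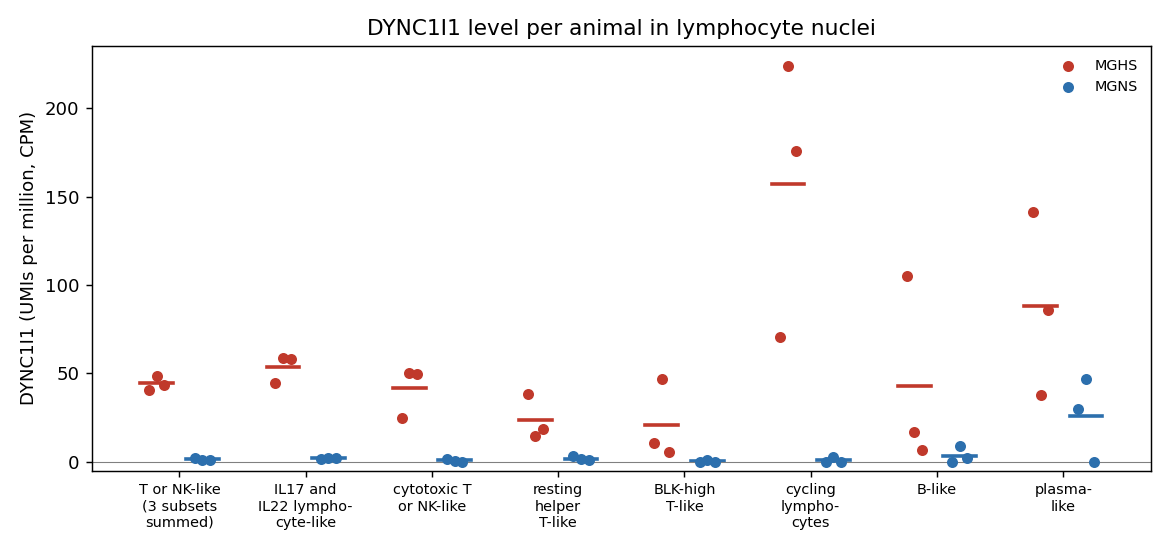
DYNC1I1 level (CPM, linear axis) in lymphocyte nuclei, 1 point per animal, with a bar at the mean of the 3 animals of a group; MGHS is left of MGNS in each pair. In T or NK-like nuclei the MGHS animals sit between 40.8 and 48.6 CPM and the MGNS animals between 1.24 and 2.32 CPM.

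All 3 T or NK-like subsets carried the difference. In nuclei with IL17F and IL22, cytokine genes of type 3 lymphocytes, DYNC1I1 stood at 44.6, 58.8 and 57.9 CPM in MGHS animals 1 to 3, against 1.69, 1.90 and 2.33 CPM in MGNS animals 1 to 3. In cytotoxic T or NK-like nuclei, marked by the granule genes GNLY and PRF1, it stood at 24.9, 50.5 and 49.6 CPM in MGHS animals, against 1.82, 0.580 and 0 CPM in MGNS animals. Resting helper T-like nuclei, marked by LEF1 and CD28, held 38.6, 14.8 and 18.3 CPM in MGHS animals, against 3.06, 1.36 and 0.929 CPM in MGNS animals. The groups did not overlap in any of the 3 subsets. MGHS animals lay above MGNS animals in 4.61% of all genes tested in the nuclei with IL17F and IL22, 6.7% in the cytotoxic nuclei and 6.88% in the resting helper nuclei. In each MGHS animal the nuclei with IL17F and IL22 stood above the resting helper nuclei. DYNC1I1 was among the variable genes that made the clusters, so this order of subsets is not independent of it.

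The fitted log2 fold changes of DYNC1I1 were 4.73 (SE 0.35) in the nuclei with IL17F and IL22, 5.45 (SE 0.59) in the cytotoxic nuclei and 3.58 (SE 0.55) in the resting helper nuclei. The cytotoxic value rests on 86 UMIs in MGHS and 3 in MGNS, a pooled ratio of 52.4 with a counting interval of 17.4 to 259. Without MGNS animal 1 its log2 fold change was 6.29. In the resting helper nuclei 44 UMIs in MGHS stood against 13 in MGNS, and the log2 fold change was 3.07 without MGHS animal 1 and 4.12 without MGNS animal 1. In these subsets edgeR called 1 of 9634 genes (0.0104%), 8 of 7951 (0.101%) and 0 of 8507 (0%), in the order given above. DYNC1I1 was the called gene of the first subset and among the called genes of the second, and it did not pass in the third. In the third it was among 28 genes called with DESeq2 and among 110 called without a filter on low counts. It was also the 1 gene called there after clustering without both members, which gave that subset more nuclei. Nothing is read from these calls, because the gene was chosen on this contrast.

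The mix of the subsets differed between animals. Nuclei with IL17F and IL22 made up 67.1, 54.1 and 33.5% of T or NK-like nuclei in MGHS animals 1 to 3, and 31.4, 13.9 and 44.1% in MGNS animals 1 to 3. Resting helper T-like nuclei made up 18.9, 17.7 and 30.3% in MGHS animals, against 46.1, 57.3 and 32.1% in MGNS animals. With the 3 subsets given equal weight in every animal, DYNC1I1 averaged 39.8 CPM in MGHS and 1.52 CPM in MGNS, a log2 difference of 4.71 that is as large as that of the summed class. Clustering repeated without DYNC1I1 and DYNC1I2 put 95.5% of nuclei in the same cluster. The fit of the summed class on that clustering is itself among the 14 alternative fits, whose log2 fold changes ran from 4.48 to 5.05. The borders between subsets moved more. Resting helper T-like nuclei went from 208, 183 and 279 to 309, 278 and 282 in MGHS animals 1 to 3. Nuclei with IL17F and IL22 went from 421, 297 and 586 to 335, 214 and 511 in MGNS animals 1 to 3.

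DYNC1I1 transcripts lay in a minority of the T or NK-like nuclei of MGHS lambs. A DYNC1I1 UMI was found in 61 of 1103, 68 of 1033 and 59 of 920 nuclei of MGHS animals 1 to 3, which is 5.53, 6.58 and 6.41%. It was found in 11 of 1342, 7 of 2133 and 4 of 1328 nuclei of MGNS animals 1 to 3, which is 0.820, 0.328 and 0.301%. At least 3 DYNC1I1 UMIs were held by 16, 18 and 14 nuclei in MGHS animals and by 0 nuclei in each MGNS animal. The fullest nucleus held 8, 5 and 12 UMIs in MGHS animals, against 2, 2 and 1 in MGNS animals. Nuclei with any DYNC1I1 UMI averaged 1.98, 1.85 and 2.03 of them in MGHS animals, against 1.09, 1.14 and 1.00 in MGNS animals.

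Shares of nuclei depend on depth, and the depths of the groups overlapped. The median T or NK-like nucleus held 2457, 2330 and 2576 UMIs in MGHS animals and 3432, 2761 and 2012 UMIs in MGNS animals. With every nucleus thinned to 1500 UMIs, and shallower nuclei left out (107 to 224 per MGHS animal and 141 to 309 per MGNS animal), DYNC1I1 was found in 4.57 ± 0.324% of MGHS nuclei and 0.239 ± 0.111% of MGNS nuclei (SD, n = 3 each). Keratinocyte-like nuclei, in which DYNC1I1 was lowest, had thinned shares of 0.209, 0.165 and 0.357% in MGHS animals, against 0.207, 0.189 and 0.346% in MGNS animals. T or NK-like nuclei had thinned shares of 4.25, 4.90 and 4.56% in MGHS animals, above the keratinocyte-like share of each animal. Their shares were 0.366, 0.191 and 0.160% in MGNS animals, above the keratinocyte-like share in MGNS animal 1, close to it in MGNS animal 2 and below it in MGNS animal 3. Free RNA was not measured, and its part in these shares was not tested.

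**Figure D2:**
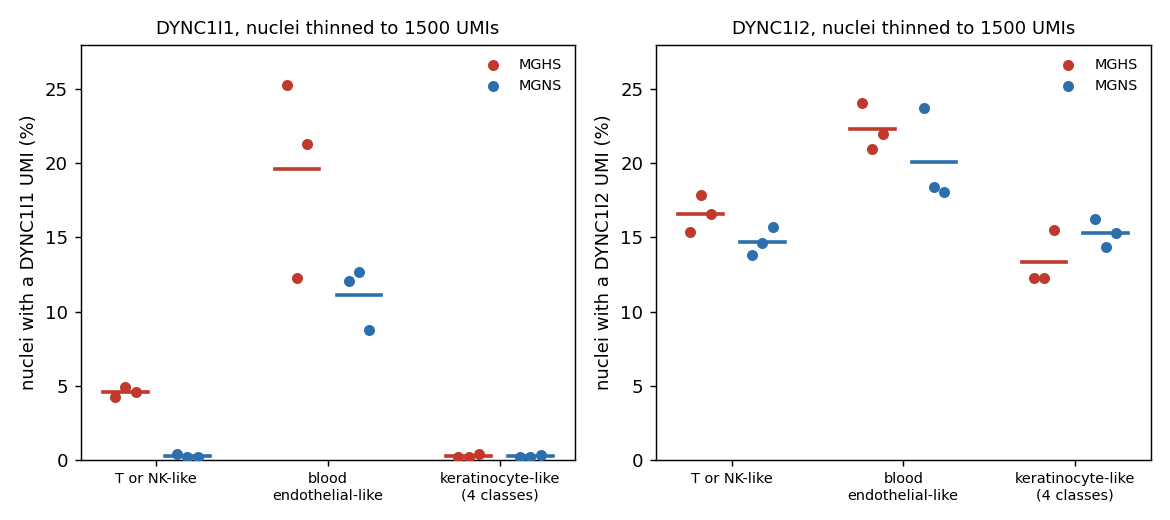
Share of nuclei (%) with at least 1 UMI of DYNC1I1 (left) or DYNC1I2 (right) after thinning each nucleus to 1500 UMIs, 1 point per animal with a bar at the group mean; MGHS is left of MGNS. The DYNC1I1 share in T or NK-like nuclei is 4.25 to 4.90% in MGHS animals and 0.160 to 0.366% in MGNS animals, and the DYNC1I2 shares of the groups overlap in each of the 3 classes.

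Nuclei with DYNC1I1 carried T cell markers like their neighbours. In MGHS animals 1 to 3 the 8 T or NK markers summed to 6570, 6991 and 4926 CPM in T or NK-like nuclei with a DYNC1I1 UMI, and to 6712, 6967 and 5795 CPM in those without. The 6 blood endothelial markers, genes of the cell type with much DYNC1I1, summed to 128, 94.4 and 98.3 CPM in nuclei with a DYNC1I1 UMI and to 123, 123 and 114 CPM in those without. Proliferation markers were at higher levels in the nuclei with DYNC1I1: the 6 cycling genes summed to 123, 88.8 and 179 CPM with a DYNC1I1 UMI, against 60.9, 56.0 and 121 CPM without. The sums with a UMI come from only 61, 68 and 59 nuclei, and their counting error was not computed. Nuclei with a DYNC1I1 UMI were also deeper, with medians of 3021, 2514 and 2910 UMIs, against 2442, 2296 and 2553 UMIs without. The part of cycling or of depth in these shares was not tested. DYNC1I2 stood at 174, 128 and 175 CPM in the nuclei with a DYNC1I1 UMI, against 122, 139 and 132 CPM in those without, and the counting intervals overlapped in each animal.

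Of 21 marker lists summed in the T or NK-like class, 18 overlapped between the groups. Among single genes tested in this class, all MGHS animals were above all MGNS animals in 6.63%. The share for the opposite order was not computed. The 6 blood endothelial markers summed to 112 to 124 CPM in MGHS animals, against 88.1 to 160 CPM in MGNS animals, and the 5 lymphatic endothelial markers to 5.39 to 21.5 CPM in MGHS, against 7.93 to 17.99 CPM in MGNS. The 7 smooth muscle or pericyte markers summed to 35.0 to 54.9 CPM in MGHS, against 21.9 to 31.3 CPM in MGNS, without overlap. The 7 dendritic markers summed to 25.6 to 30.5 CPM in MGHS, against 42.2 to 49.5 CPM in MGNS, and the 8 resting helper T markers to 1651 to 1912 CPM in MGHS, against 2526 to 3059 CPM in MGNS, again without overlap. The 6 glia markers summed to 0.772 to 5.46 CPM in MGHS, against 1.71 to 6.22 CPM in MGNS, and the 8 neuron markers to 2.69 to 8.73 CPM in MGHS, against 4.58 to 11.2 CPM in MGNS. The glia marker SOX10 and the neuron marker NEFL were at 0 in the class in all animals. The part of these markers in the difference in DYNC1I1 was not tested.

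Cycling lymphocytes, a small cluster led by STMN1 and MKI67, had the highest mean DYNC1I1 of any lymphocyte cluster in MGHS lambs. The level was 70.7, 224 and 176 CPM in MGHS animals 1 to 3, from 17, 30 and 59 nuclei. It was 0, 2.91 and 0 CPM in MGNS animals 1 to 3, from 63, 131 and 20 nuclei. The level of MGHS animal 1 rests on 7 UMIs and lay below those of its plasma-like and B-like nuclei, 141 and 105 CPM. The groups did not overlap, with 79 UMIs in MGHS and 2 in MGNS, a pooled ratio of 98.9 with a counting interval of 26.5 to 831. All MGHS animals were above all MGNS animals in 5.38% of the 10298 genes with at least 10 UMIs in this cluster, which had too few nuclei in MGHS animal 1 to be fitted. A DYNC1I1 UMI was found in 3 of 17, 9 of 30 and 16 of 59 of these nuclei in MGHS animals, against 0 of 63, 2 of 131 and 0 of 20 in MGNS animals, where a count of 0 allows up to 4.76 and 15% of nuclei with a UMI, a limit on detected transcripts and not on expression.

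BLK-high T-like nuclei, a cluster with gamma-delta T markers, held 10.7, 46.7 and 5.49 CPM of DYNC1I1 in MGHS animals, against 0, 1.17 and 0 CPM in MGNS animals. These values come from 12 UMIs in MGHS and 1 in MGNS, with 10 of the 12 in MGHS animal 2, so that the values of MGHS animals 1 and 3 are a single UMI each. The groups did not overlap, and MGHS animals lay above MGNS animals in 6.92% of the genes tested there.

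In cells of the B lineage the groups overlapped. Plasma-like nuclei, with the antibody joining chain gene JCHAIN, held 141, 37.7 and 85.7 CPM in MGHS animals, against 30.1, 47.1 and 0 CPM in MGNS animals. The MGHS 2 value is 1 UMI in 7 nuclei and the MGNS 3 value 0 UMIs in 11 nuclei. The pooled UMIs were 83 in each group, from fewer UMIs of all genes in MGHS, which gives a pooled ratio of 3.04 with a counting interval of 2.22 to 4.17. In MGNS animal 2 a single plasma-like nucleus held 16 of 54 UMIs. B-like nuclei held 105, 16.6 and 6.95 CPM in MGHS animals, against 0, 8.71 and 1.98 CPM in MGNS animals, with 15 UMIs in MGHS and 12 in MGNS. For both clusters summed the fitted log2 fold change was 2.57 (SE 0.63), and it ranged from 1.76 without MGHS animal 1 to 3.37 without MGNS animal 2.

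Outside the lymphocytes DYNC1I1 was highest in endothelial nuclei, and there the groups overlapped. Blood endothelial-like nuclei, with PECAM1 and VWF, held 225, 113 and 197 CPM in MGHS animals, against 105, 134 and 71.4 CPM in MGNS animals. The means were 178 ± 58.2 CPM in MGHS and 103.5 ± 31.45 CPM in MGNS (SD, n = 3 each), with a fitted log2 fold change of 0.74 (SE 0.30). A DYNC1I1 UMI was found in 39.5, 18.8 and 38.7% of these nuclei in MGHS animals, against 27.6, 20.98 and 16.1% in MGNS animals. Lymphatic endothelial-like nuclei, with PROX1 and RELN, held 126, 234 and 109 CPM in MGHS animals, against 308, 79.75 and 163 CPM in MGNS animals. Their fitted log2 fold change of -0.20 (SE 0.51) changed sign, to 0.40, without MGNS animal 1.

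Fibroblast-like nuclei carried less DYNC1I1 than endothelial nuclei, with a gap between the groups when their clusters were summed. They held 37.6, 28.2 and 25.0 CPM in MGHS animals, against 5.99, 9.15 and 16.1 CPM in MGNS animals, and the groups did not overlap, as in 9.45% of the genes tested there with MGHS above MGNS. The fitted log2 fold change was 1.52 (SE 0.36), and it ranged from 1.25 to 1.99 over the fits that left out 1 animal. The cluster with PDGFRA, a growth factor receptor gene of fibroblasts, held most of these UMIs, with 219 of 241 in MGHS and 67 of 74 in MGNS. In that cluster MGHS animals held 51.1, 32.8 and 29.2 CPM and MGNS animals 7.28, 9.57 and 27.98 CPM, so that MGNS animal 3 lay just under the MGHS range. In the cluster with SCARA5 the groups overlapped, with means of 10.5 ± 7.31 CPM in MGHS and 3.82 ± 3.49 CPM in MGNS (SD, n = 3 each). MGNS animal 3 had 397 nuclei in the PDGFRA cluster and 396 in the SCARA5 cluster. MGNS animals 1 and 2 had 251 and 288 against 87 and 101, and MGHS animals 407, 363 and 541 against 186, 199 and 174. The part of this mix in the gap was not tested.

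In the MYH11 cluster, named for smooth muscle myosin, 1 MGHS animal stood apart. The name is loose, because only 4 of 7 smooth muscle or pericyte markers were at least 2-fold higher there than in the other nuclei. The mean log2 ratio to the other nuclei was 2.60 for these markers and 1.34 for fibroblast markers, the next list. DYNC1I1 stood at 3.35, 192 and 3.25 CPM in MGHS animals 1 to 3, against 4.50, 2.14 and 0 CPM in MGNS animals 1 to 3. MGHS animal 2 gave 248 of the 258 UMIs of its group there, and the other 5 animals overlapped. The RGS5 cluster of pericyte-like nuclei held 65.6, 41.2 and 15.4 CPM in MGHS animals, against 14.7, 0 and 23.5 CPM in MGNS animals. For both clusters summed the fitted log2 fold change was 3.31 (SE 1.22) with all animals and 1.32 without MGHS animal 2.

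Myeloid and keratinocyte-like nuclei held few DYNC1I1 UMIs. Macrophage-like nuclei held 6.17, 4.12 and 12.3 CPM in MGHS animals, against 2.25, 0.528 and 4.75 CPM in MGNS animals. Dendritic-like nuclei held 2.66, 5.23 and 5.44 CPM in MGHS animals, against 1.21, 1.25 and 1.28 CPM in MGNS animals, from 13 UMIs in MGHS and 5 in MGNS. The dendritic-like groups did not overlap, as in 8.14% of the genes tested there with MGHS above MGNS. The 4 keratinocyte-like classes together held 1.37, 1.56 and 2.54 CPM in MGHS animals, against 1.40, 1.41 and 2.24 CPM in MGNS animals. Basal-like nuclei, the stem layer of the epithelium, had the lowest mean over the 6 animals of any cluster, 1.53 ± 0.611 CPM (SD, n = 6). Glia-like nuclei held 0, 0 and 24.6 CPM in MGHS animals, against 41.5, 23.9 and 93.7 CPM in MGNS animals, but these levels rest on 1 UMI in MGHS and 14 in MGNS.

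**Figure D3:**
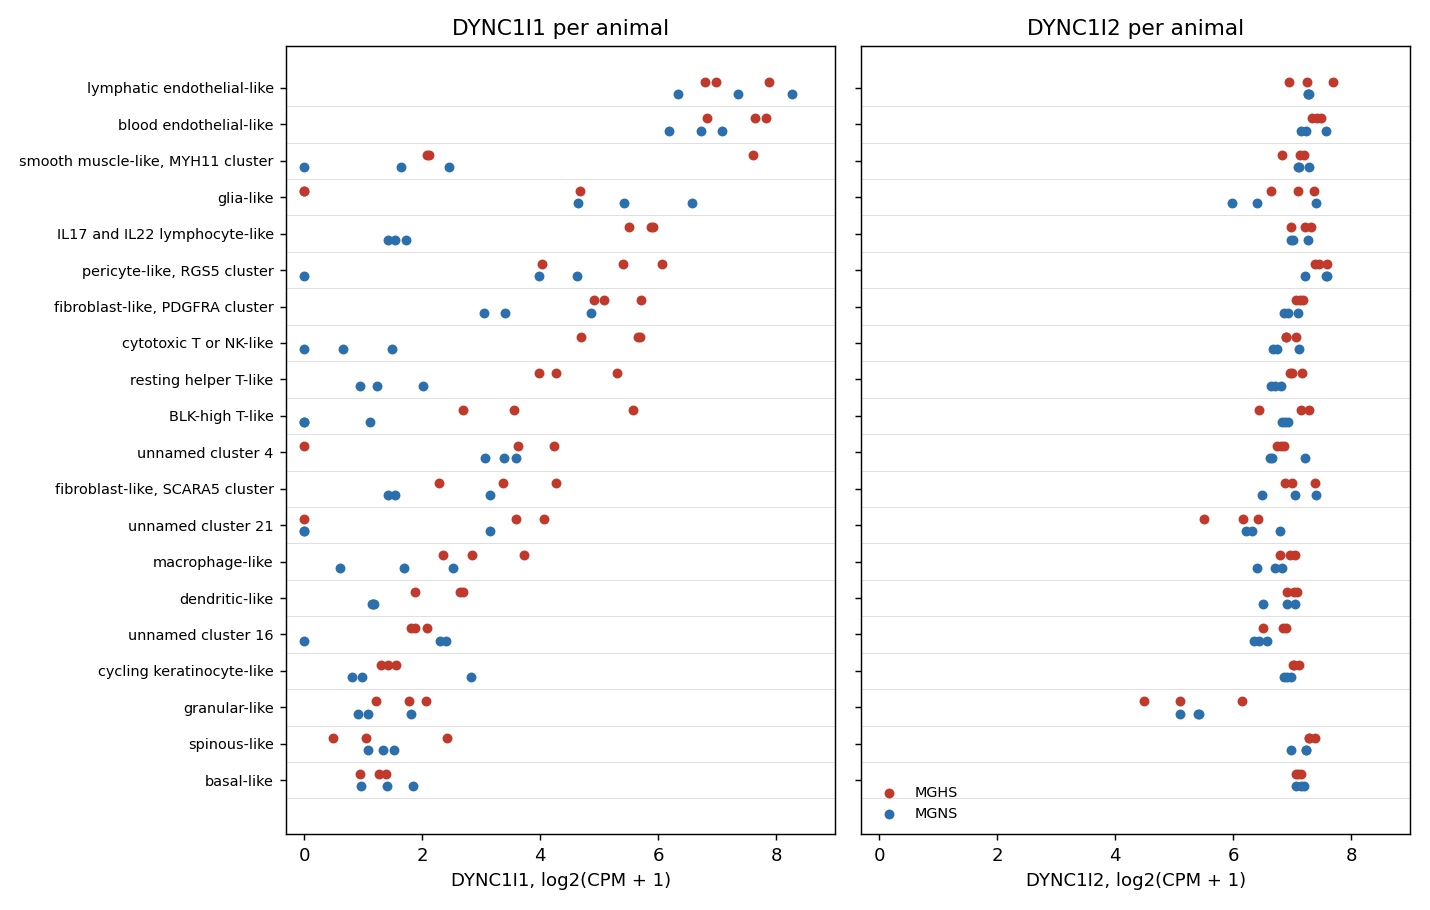
DYNC1I1 (left) and DYNC1I2 (right) as log2(CPM + 1) in the 20 clusters with at least 20 nuclei in every animal, 1 point per animal, MGHS above MGNS within a row; rows are ordered by the mean DYNC1I1 level over the 6 animals. DYNC1I1 runs from 170 CPM in lymphatic endothelial-like nuclei to 1.53 CPM in basal-like nuclei, whereas DYNC1I2 stays between 40.1 and 177 CPM.

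Ordered by the mean over all 6 animals, DYNC1I1 stood at 170 ± 85.9 CPM in lymphatic endothelial-like nuclei, 141 ± 58.5 in blood endothelial-like nuclei, 34.3 ± 77.5 in the MYH11 cluster, 30.6 ± 34.8 in glia-like nuclei and 27.9 ± 28.8 in the nuclei with IL17F and IL22 (SD, n = 6 each). Each cluster overlapped with its neighbour in this order. The rank of the lymphocytes is an average of groups far apart: nuclei with IL17F and IL22 stood at 53.8 ± 7.98 CPM in MGHS and 1.97 ± 0.326 CPM in MGNS (SD, n = 3 each).

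The UMIs of DYNC1I1 were spread differently over the cell groups. Lymphocytes gave 32.9, 19.9 and 24.2% of the DYNC1I1 UMIs of MGHS animals 1 to 3, from 23.2, 18.04 and 10.8% of their nuclei. Lymphocytes gave 12.5, 23.7 and 1.82% of the DYNC1I1 UMIs of MGNS animals 1 to 3, from 40.2, 36.2 and 25.0% of their nuclei. Endothelial nuclei gave 36.4, 33.8 and 47.2% in MGHS animals, against 72.0, 56.4 and 53.1% in MGNS animals. Over all lymphocytes summed, DYNC1I1 stood at 54.0, 54.0 and 53.6 CPM in MGHS animals, against 4.77, 7.31 and 1.17 CPM in MGNS animals. Plasma-like and B-like nuclei gave 29 of 41, 65 of 76 and 1 of 5 of the lymphocyte UMIs of MGNS animals 1 to 3, so most of them in MGNS animals 1 and 2 but not in MGNS animal 3.

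**Figure D4:**
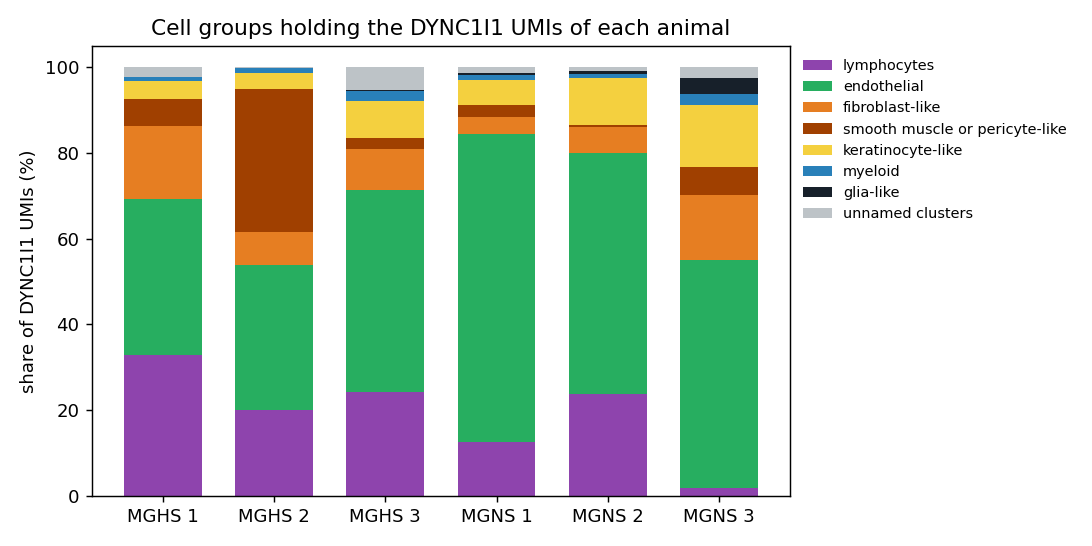
Share of the DYNC1I1 UMIs (%) of each animal that lay in each cell group, as stacked bars; MGHS animals are on the left. Lymphocytes hold 19.9 to 32.9% in MGHS animals and 1.82 to 23.7% in MGNS animals, and endothelial nuclei hold 53.1 to 72.0% in MGNS animals.

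DYNC1I2, the intermediate chain of most cells, did not pass the test in T or NK-like nuclei. It stood at 126, 139 and 135 CPM in MGHS animals 1 to 3, against 111, 111 and 130 CPM in MGNS animals 1 to 3, and the groups overlapped. The means were 133 ± 6.68 CPM in MGHS and 117 ± 10.8 CPM in MGNS (SD, n = 3 each). The log2 fold change was 0.14 (SE 0.14; adjusted p = 0.894 by edgeR's quasi-likelihood test), and 2 standard errors on either side reach from -0.14 to 0.43. A DYNC1I2 UMI was found in 22.8, 25.4 and 28.04% of nuclei in MGHS animals, against 27.3, 24.6 and 21.1% in MGNS animals (exact two-sided permutation p = 0.7, where 0.1 is the smallest that 3 animals against 3 allow). After thinning the shares averaged 16.6 ± 1.27% in MGHS and 14.7 ± 0.954% in MGNS (SD, n = 3 each; exact two-sided permutation p = 0.2).

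In the subsets DYNC1I2 did not pass the test either. Resting helper T-like nuclei held 126, 142 and 123 CPM in MGHS animals, against 103, 110 and 98.4 CPM in MGNS animals. The groups did not overlap there, as in 6.88% of the genes tested with MGHS above MGNS, and the log2 fold change was 0.28 (SE 0.17; edgeR adjusted p = 0.873). Nuclei with IL17F and IL22 held 124, 147 and 157 CPM in MGHS animals, against 128, 125 and 152 CPM in MGNS animals (log2 fold change 0.09, SE 0.18; edgeR adjusted p = 0.986). Cytotoxic nuclei held 132, 118 and 117 CPM in MGHS animals, against 101, 106 and 138 CPM in MGNS animals (log2 fold change 0.10, SE 0.20; edgeR adjusted p = 0.916).

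In 12 further classes in which it could be fitted, DYNC1I2 passed the edgeR test in 0, and in 0 of them at an unadjusted p under 0.05 or under any of the alternative fits, DESeq2 among them. Its log2 fold changes there ran from -0.02 in smooth muscle or pericyte-like nuclei to 0.31 (SE 0.325) in granular-like nuclei, where it was 0.06 without MGHS animal 3. Fitted values use edgeR's own scaling and can differ in sign from the CPM means. In basal-like nuclei the fit gave 0.08, with means of 136 CPM in MGHS and 140 CPM in MGNS. The smallest adjusted p was 0.455, in cycling keratinocyte-like nuclei, with 129, 137 and 128 CPM in MGHS animals, against 125, 120 and 115 CPM in MGNS animals. These groups did not overlap, as in 6.24% of the genes tested with MGHS above MGNS. In spinous-like nuclei, the middle layer of the epithelium, DYNC1I2 stood at 155, 167 and 155 CPM in MGHS animals, against 149, 125 and 149 CPM in MGNS animals, also without overlap, as in 6.85% of the genes tested with MGHS above MGNS. In the same classes edgeR called 0.0403% of genes in spinous-like nuclei, 0.189% in cycling keratinocyte-like nuclei, 0.0807% in fibroblast-like nuclei, 0.0212% in blood endothelial-like nuclei, 0.00711% in basal-like nuclei, 0.00824% in granular-like nuclei and 0% in the rest. Leaving out 1 animal moved the number of called genes, which was 19 in cycling keratinocyte-like nuclei, 10 in fibroblast-like nuclei and 5 in spinous-like nuclei, to between 0 and 140, 0 and 5, and 0 and 3. The 140 came without MGNS animal 3, and 0 came without MGHS animal 1 in each of these classes.

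Across cell types DYNC1I2 varied less than DYNC1I1. Its mean over the 6 animals was highest in the RGS5 cluster of pericyte-like nuclei, at 177 ± 17.8 CPM, and lowest in granular-like nuclei, the outer living layer, at 40.1 ± 16.5 CPM (SD, n = 6 each). All clusters other than granular-like nuclei lay between 77.0 and 177 CPM, and every cluster overlapped with its neighbour in the order. In granular-like nuclei MGHS animals held 33.2, 21.5 and 70.2 CPM and MGNS animals 41.5, 33.0 and 41.0 CPM.

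The other subunits of the motor and its partners were measured in T or NK-like nuclei from lists of cytoplasmic dynein 1, dynactin, regulators and adaptors, dynein 2 and conventional kinesin. Beside DYNC1I1, 47 genes of these lists could be tested. None was called by edgeR, and 0 of the 47 had an unadjusted p under 0.05, against 6.92% of all genes tested. DESeq2 also called 0 of them. Their log2 fold changes ran from -0.40 to 0.78, and the median over all genes tested was 0.01. As background for the counts by direction below, 5951 of all 11721 genes tested lay above 0 and 5770 below.

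Of the cytoplasmic dynein 1 genes, 10 beside DYNC1I1 were tested, with a median log2 fold change of 0.13, of which 9 lay above 0 and 1 below. DYNLT2B, a Tctex-type light chain best known from dynein 2, was kept in this list as it had been drawn up, and without it 8 of 9 genes lay above 0, with a median of 0.12. It held 18.5 ± 6.48 CPM in MGHS and 11.8 ± 2.44 CPM in MGNS (log2 fold change 0.60, edgeR adjusted p = 0.731). DYNLL2, a light chain of the LC8 type, held 27.98 ± 1.35 CPM in MGHS and 22.8 ± 1.92 CPM in MGNS (log2 fold change 0.26, edgeR adjusted p = 0.819). DYNC1LI1, a light intermediate chain that binds cargo adaptors, held 80.6 ± 8.08 CPM in MGHS and 69.5 ± 3.34 CPM in MGNS (log2 fold change 0.17, edgeR adjusted p = 0.866). DYNLL1, the other LC8 light chain, was the one below 0, with 16.9 ± 1.78 CPM in MGHS and 18.95 ± 3.98 CPM in MGNS (log2 fold change -0.20, edgeR adjusted p = 0.912; SD, n = 3 each throughout). The light chain gene DYNLRB2 was too low to be tested.

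Dynactin, the activator that the intermediate chains bind, showed 8 genes above 0 and 3 below among 11 tested, with a median log2 fold change of 0.10. The filament genes ACTR1A and ACTR1B and the pointed-end gene ACTR10 had the smallest p above 0, with log2 fold changes of 0.27, 0.50 and 0.16 and edgeR adjusted p of 0.821, 0.851 and 0.907. Below 0 lay CAPZA2 at -0.18, DCTN4 at -0.15 and DCTN1, the p150 subunit to which the intermediate chains attach, at -0.05, with edgeR adjusted p of 0.882, 0.896 and 0.975. DCTN1 held 32.9 ± 2.42 CPM in MGHS and 33.2 ± 3.62 CPM in MGNS (SD, n = 3 each).

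Regulators and adaptors lay mostly below 0, with 12 of 18 tested and a median log2 fold change of -0.17, and 0 were called. TRAK2, an adaptor for mitochondria, had -0.37, NIN, a centrosomal adaptor, had -0.40, and NDEL1, a partner of LIS1, had -0.30, with edgeR adjusted p of 0.738, 0.747 and 0.775. NDE1, the paralog of NDEL1, had 0.28, PAFAH1B1, which encodes LIS1, had 0.09, and HOOK1 had 0.13, with edgeR adjusted p of 0.918, 0.937 and 0.956. PAFAH1B1 held 375 ± 14.6 CPM in MGHS and 344 ± 20.5 CPM in MGNS (SD, n = 3 each).

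Dynein 2, the motor of cilia, gave 3 tested genes, with log2 fold changes of 0.06 for DYNC2LI1, -0.06 for DYNC2I1 and -0.01 for DYNC2H1 and edgeR adjusted p of 0.987, 0.990 and 0.996. Among 5 tested genes of conventional kinesin, the motor that runs the other way, 4 lay above 0 with a median of 0.10. KLC2 had 0.78, KIF5A had 0.78 and KLC1 had 0.10, while KLC4 had -0.12, with edgeR adjusted p of 0.746, 0.791, 0.932 and 0.970. KLC2 and KIF5A are low genes here, with 6.45 ± 1.69 and 5.70 ± 2.13 CPM in MGHS, against 3.68 ± 1.10 and 3.43 ± 1.88 CPM in MGNS (SD, n = 3 each).

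**Figure D5:**
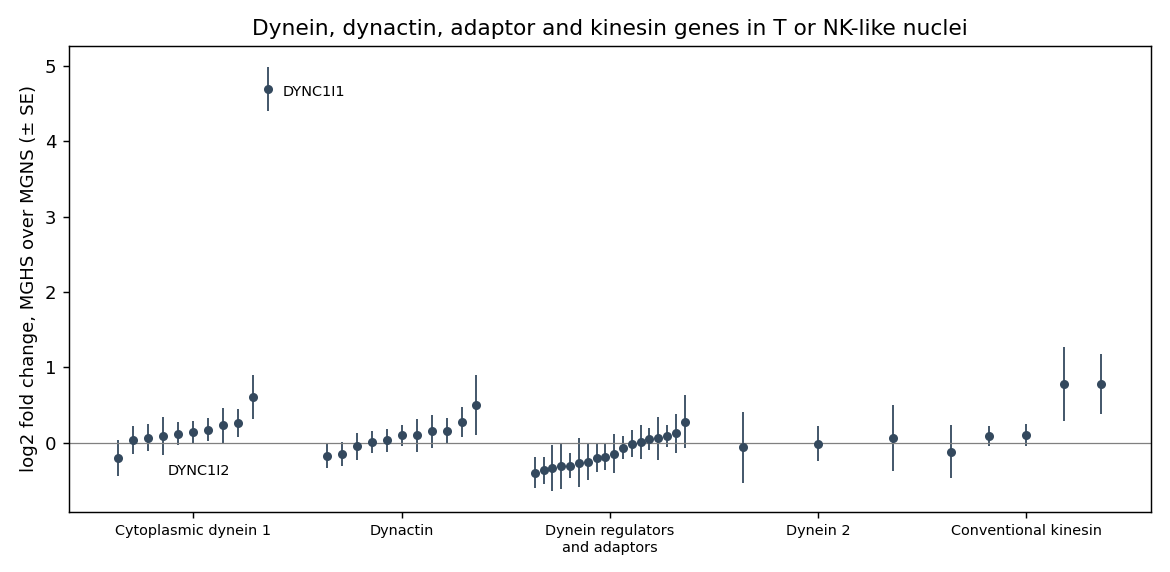
Log2 fold change of MGHS over MGNS with its SE in T or NK-like nuclei (vertical axis) for the genes tested in 5 lists, sorted within a list. DYNC1I1, chosen on this contrast, lies at 4.69 and the other 47 genes, DYNC1I2 among them, between -0.40 and 0.78.

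Likeness of levels over 20 clusters was measured by Pearson correlation of log2(mean CPM + 1). Of 15178 genes with enough counts, those with a placeholder LOC symbol and tRNA genes were left out of the ranking. The genes most like DYNC1I1 were GNG11 (r = 0.915), TIMP3 (0.900), CSGALNACT1 (0.894), HDAC7 (0.867), HOXD4 (0.864), EXTL3 (0.859), PRSS23 (0.853), TMEM204 (0.852), SLC41A1 (0.844) and SYN3 (0.843). For 9 of these 10 the highest cluster was 1 of the endothelial ones, and SYN3 was highest in glia-like nuclei. Those most like DYNC1I2 were DCTN2 (r = 0.933), the dynactin subunit that links its arm to its filament, then RABL6 (0.932), GNL3L (0.922), PDCD11 (0.919) and MRPS27 (0.915). These correlations are descriptions over 20 clusters of the same 6 libraries.

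The genes next to DYNC1I1 were looked at for the order of genes in the RefSeq table of ARS-UI_Ramb_v3.0; which build the files use is not stated there or in the labels. The nearest on one side are ASB4, PDK4 and a noncoding locus, and on the other SLC25A13 and a pair of noncoding loci, and 0 genes of the matrices overlap DYNC1I1. SLC25A13, the mitochondrial aspartate and glutamate carrier, stood at 82.9, 104 and 96.7 CPM in T or NK-like nuclei of MGHS animals, against 77.2, 88.3 and 83.4 CPM in MGNS animals (log2 fold change 0.15, edgeR adjusted p = 0.902). ASB4, a substrate receptor of ubiquitin ligases, stood at 9.77, 8.87 and 13.5 CPM in MGHS animals, against 11.2, 5.89 and 9.81 CPM in MGNS animals (log2 fold change 0.22, edgeR adjusted p = 0.932). PDK4, a kinase that inhibits pyruvate dehydrogenase, stood at 5.05, 10.8 and 6.91 CPM in MGHS animals, against 8.52, 16.6 and 12.8 CPM in MGNS animals (log2 fold change -0.78, edgeR adjusted p = 0.731). The noncoding loci had at most 6 UMIs each in this class.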

How the data were processed

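Each deposited matrix is a table of raw UMI counts for genes by barcodes, with whole numbers and no scaling by the authors. The file headers name Cell Ranger 8.0.0, whereas the submitters' processing notes name 2.1.1. Neither source gives the genome build. The 26741 NCBI gene numbers were all matched to symbols of ARS-UI_Ramb_v3.0. From the counts, nuclei with at least 300 genes, at most 10% mitochondrial UMIs and outside the top 0.5% of UMIs were kept, doublets were called with Scrublet (scanpy 1.11.5), and 3661 were removed. In libraries where the caller had marked fewer than 0.5%, the top scores at a rate of 0.8% per 1000 nuclei were removed. Clusters were made from 2000 variable genes, 30 principal components and 5 neighbours per library (Leiden, resolution 0.8), which gave 23 clusters. DYNC1I1 was among the variable genes, so clustering was repeated without both genes.

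UMIs were summed per animal and class, and tested with edgeR 4.0.16 (quasi-likelihood, filterByExpr with a minimum count of 10, TMM), with Benjamini-Hochberg adjustment over all genes of a class and a threshold of 0.05, where every animal had at least 20 nuclei. The script was tested on simulated data. DESeq2 1.42.0 and limma 3.58.1 were alternatives. The animal is the replicate. The members and gene lists were chosen with earlier results of these data known. Genes of the lists are named by the 3 smallest p in each direction, and neighbours by the 3 nearest on each side. Likeness is given by the 10 and 5 highest correlations among genes of at least 10 CPM in a cluster, without LOC symbols and tRNA genes. Intervals and floors (3 counts) cover counting error only, at 95%. No sequence is printed, since no sequence table was used here.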

Additional observations from a re-analysis of the deposited data

How the results depend on the processing

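Leaving out 1 animal at a time moved the log2 fold change of DYNC1I1 in T or NK-like nuclei between 4.48 and 5.05, the highest without MGNS animal 1, and that of DYNC1I2 between 0.09 and 0.21. The number of genes called in T or NK-like nuclei was 79 with DESeq2, 92 without a filter on low counts, and 1 to 3 when 1 animal was left out, against 1; DYNC1I2 and the 47 list genes were called in none of these fits. The difference in the share of nuclei with a DYNC1I2 UMI, 1.04 percentage points, ranged from -0.593 to 2.54 when 1 animal was left out, turning below 0 without MGHS animal 3 and without MGNS animal 3, and was 1.90 after thinning. Among 23 named list genes under 14 alternatives each, 0 of 322 values passed and 18 changed sign: without 1 animal DCTN1 ranged from -0.14 to 0.000526, HOOK1 from -0.0745 to 0.26, DYNC2LI1 from -0.13 to 0.28, DYNC2I1 from -0.53 to 0.37, DYNC2H1 from -0.23 to 0.16 and KLC4 from -0.32 to 0.0691. With limma-voom DYNC2LI1 was -0.15, DYNC2H1 0.0011 and KLC4 0.0158, and without doublet removal DYNC2LI1 was -0.0479. The causes were not tested.

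The replicate numbers share no stated batch. In T or NK-like nuclei the deviations of same-numbered animals correlated at -0.0204, -0.0191 and -0.0214, and no pairing was used. Such deviations were not checked in the other classes. With the replicate block DYNC1I2 in T or NK-like nuclei had a log2 fold change of 0.15 (edgeR adjusted p = 0.972), DYNC1I1 had 4.71 and 1 gene was called. The block gave 72 calls in blood endothelial-like nuclei, against 2, and 192 in cycling keratinocyte-like nuclei, against 19. In resting helper T-like nuclei it gave 13, against 0, with DYNC1I1 among them. Nothing is read from calls of DYNC1I1, because it was chosen on this contrast. All 120 cluster levels recomputed with another clustering, with doublets kept or with at least 500 genes per nucleus lay within 1 SD of the animals. For DYNC1I1 this is a loose bound, because the SD over 6 animals holds the gap between the groups. In the nuclei with IL17F and IL22 it was 28.8 CPM on a mean of 27.9 CPM. Depth limits the MGNS values of T or NK-like nuclei, which rest on 4 to 12 DYNC1I1 UMIs per animal.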

Other observations

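In the MYH11 cluster of MGHS animal 2, DYNC1I1 lay in 54 of 346 nuclei, up to 23 UMIs in a nucleus. The genes named here were picked after their values were seen, from 1 library, so no test applies, and intervals cover counting error only. The 54 nuclei held CHRM3, the muscarinic receptor gene of visceral smooth muscle, at 5968 CPM (5681 to 6267), against 553 CPM (508 to 601) in the other 292 nuclei. A ranking by ratio, with 10 CPM added to each side, covered 1263 genes with at least 200 CPM in either set and no placeholder LOC symbol. The ones farthest apart upward in it were NKAIN2, with 738 CPM against 23.6 CPM, TENM1, with 402 CPM against 14.7 CPM, and FGF13, with 280 CPM against 7.86 CPM. CDH18 had 0 UMIs in the 54 nuclei and 1231 in the other 292, and CNTN1 had 1 and 1044. The nuclei with DYNC1I1 were deeper, with a median of 5057 UMIs, against 3256 UMIs.

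Nuclei of this cluster with at least 10 CHRM3 UMIs were present in every animal: 17, 74 and 15 in MGHS animals 1 to 3, and 5, 1 and 16 in MGNS animals 1 to 3. In MGHS animal 2 they held 239 of the 248 DYNC1I1 UMIs of the cluster, in 49 of the 74 nuclei. In each of the other 5 animals they held 0 DYNC1I1 UMIs.

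DYNC1I1-bearing T or NK-like nuclei of MGHS animals 1 to 3 were in the subset with IL17F and IL22 for 77.0, 64.7 and 50.8%, compared with 66.5, 53.4 and 32.3% of nuclei without a DYNC1I1 UMI, and in the resting helper subset for 11.5, 5.88 and 13.6%, compared with 19.3, 18.5 and 31.5%. DYNC1I1 was among the variable genes that made the clusters, so these shares are not independent of it. They were not recomputed on the clustering without both members, in which the subset borders moved. PDK4, which lies beside DYNC1I1, did not pass the test in endothelial nuclei. It stood at 79.8, 142 and 53.8 CPM in blood endothelial-like nuclei of MGHS animals, against 172, 510 and 167 CPM in MGNS animals (log2 fold change -1.67, edgeR adjusted p = 0.426). In lymphatic endothelial-like nuclei it stood at 50.3, 79.0 and 27.3 CPM in MGHS animals, against 115, 190 and 181 CPM in MGNS animals (log2 fold change -1.61, edgeR adjusted p = 0.220).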
